A study of Arabidopsis thaliana with 30 samples.

Results

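The transcriptomes of the root sort labelled cortex and of the sort labelled pericycle were compared in Arabidopsis thaliana seedlings, with every library of these sorts in the series taken, which made 12 of its 30 libraries. The cortex-labelled cells came from line J0571 and the pericycle-labelled cells from line J0661, both recorded as wild type, and each sort had 3 libraries from seedlings on high phosphate (HPi) and 3 from seedlings on low phosphate (LPi). All seedlings had grown for 6 days at 22 °C on diluted MS medium under 16 h of light and 8 h of darkness, and the cells were collected by fluorescence-activated cell sorting. One label gives LPi as 5 µM phosphate and another as medium without phosphate, so the exact level is uncertain. Because each cell type was sorted from its own line, the cell type and the line cannot be told apart, and each J line is a GAL4 enhancer-trap line, in which a reporter follows the activity of 1 insertion. No label ties a replicate to its own culture or plants, so the p-values rest on the spread among these libraries alone, which may be technical.

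The root's ground tissue forms the cortex and, inside it, the endodermis, and the pericycle lies directly against the inner face of the endodermis as the outermost layer of the stele. The endodermis seals its walls with the lignified Casparian strip and later with suberin lamellae, so that solutes must enter its cells before they can reach the stele. The pericycle loads nutrients into the xylem and gives rise to lateral roots after local auxin signalling. The transcription factor SHORT-ROOT (SHR), made in the stele, moves outwards into the ground tissue, where it acts with SCARECROW (SCR) to specify the endodermis. Line J0571 is widely used as a marker of ground tissue, with reporter activity in both cortex and endodermis.

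The deposited counts summed to 6671998 to 62197932 reads in genes in the cortex-labelled libraries and to 1863306 to 122076663 in the pericycle libraries. Levels are given as CPM, counts scaled to a common total per library with its TMM factor, a correction for differences in RNA composition. A difference is the log2 of cortex over pericycle with its standard error (±) over the 6 libraries of each sort, so positive values are higher in the cortex-labelled sort, and a gene is called at an adjusted p under 0.05 in edgeR's quasi-likelihood test with phosphate level as a covariate. Pericycle LPi replicate 3 stood apart from the other libraries. Its TMM factor was 0.511 against 0.887 to 1.24 in the other 11 libraries, and its mean correlation with its own sort was 0.775 against 0.832 to 0.895. Counts of calls among all genes and in each gene list are therefore also given without it.

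The markers of root cell types were summed in each library to check the labels. The endodermis list (21 genes) summed to a lowest, median and highest value of 19441, 29282 and 38278 CPM in the cortex-labelled sort and of 313, 553 and 1080.1 CPM in the pericycle sort. The cortex list (6 genes) summed to only 9.37, 15.99 and 22.1 CPM in the sort labelled cortex and to 2.17, 3.397 and 4.75 CPM in the pericycle sort. The endodermis and cortex sums did not overlap between the sorts, but the cortex markers were low even in the sort named for them. AT1G62500, a defining cortex marker, had 13 reads in all 6 cortex-labelled libraries together and 2 in the pericycle libraries, and AT1G62510 had 19 and 24, so neither was tested. The sort is therefore called the cortex-labelled sort here, and it is led by genes of the endodermis. Fewer cells of a type and less RNA per cell cannot be told apart in such bulk libraries.

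The pericycle list (8 genes) summed to 317, 388 and 574 CPM in the cortex-labelled sort and 318, 487 and 877 CPM in the pericycle sort, so the groups overlapped. The sum was carried mainly by the aquaporin gene TIP2;3, which was read at 289 to 559 CPM (median 372) and 253 to 747 CPM (median 428), and 4 other members were higher in the pericycle sort. The markers of other stele tissues were also higher there. The phloem list (17 genes) summed to 9.86, 26.2 and 50.05 CPM in the cortex-labelled sort and 116, 325 and 364 CPM in the pericycle sort, and the procambium list (19 genes) to 144, 169.7 and 214 and 487, 518 and 1117 CPM. The 2 sorts did not overlap in either sum. The xylem sums (11.9, 45.9 and 211 against 25.2, 69.6 and 96.5 CPM), the epidermis sums (24.9, 56.3 and 75.6 against 37.8, 45.4 and 96.6) and the root cap sums (17.8, 26.9 and 48.8 against 9.95, 15.2 and 170.2) overlapped. Pericycle LPi replicate 3 held the highest root cap, procambium, epidermis and suberin sums and the lowest phloem sum of the pericycle sort.

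**Figure D1:**
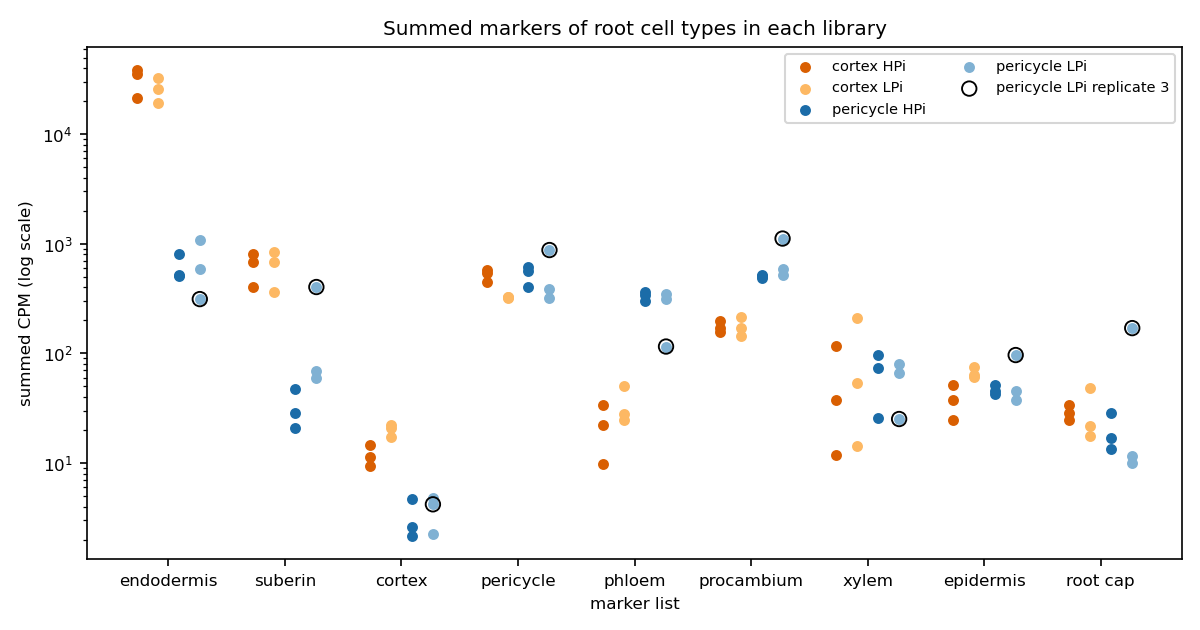
Summed CPM (log scale) of the marker genes of 9 root cell types or layers in each of the 12 libraries, coloured by sort and phosphate level, with pericycle LPi replicate 3 ringed. The endodermis, suberin and cortex sums of the cortex-labelled libraries lie above those of the pericycle libraries except for the ringed library in suberin (403 CPM), and the phloem and procambium sums lie below.

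Over the 21346 genes tested, 4479 were called (21.0%), with 2261 higher in the cortex-labelled sort (10.6%) and 2218 higher in the pericycle sort (10.4%). The median log2 difference of all genes tested was −0.09, and 1146 calls exceeded 3 on the log2 scale, 579 of them higher in the cortex-labelled sort and 567 higher in the pericycle sort. The 6 libraries of the cortex-labelled sort all lay above the 6 of the pericycle sort for 1679 genes (7.87%), and all below them for 1527 genes (7.15%), and without pericycle LPi replicate 3 for 2148 and 2696 of 23155 genes (9.28% and 11.6%). Without pericycle LPi replicate 3, 5911 of 23155 genes were called (25.5%), 2896 higher in the cortex-labelled sort (12.5%) and 3015 higher in the pericycle sort (13.0%). Both fits shared 4276 calls in the same direction. The counts of each gene list below stand beside the shares by direction, 10.6% and 10.4% with all 12 libraries. Without pericycle LPi replicate 3 the shares to set beside them are 12.5% and 13.0%.

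The genes with the largest differences towards the cortex-labelled sort were mostly genes of the Casparian strip. The 12 largest in each direction were taken among called genes with no overlap between the sorts. Among those higher in the cortex-labelled sort were CASP1, CASP2, the peroxidase genes PER64 and AT1G44970, and the dirigent-like genes AT3G55230, AT4G13580 and AT2G39430. AT3G55230 was read at 1516 to 4643 CPM (median 2529) in the cortex-labelled libraries and at 0 to 16.1 CPM (median 2.23) in the pericycle libraries (log2 difference 9.56 ± 1.2, adjusted p = 1.57e-04). AT4G13580 was read at 279.7 to 968 CPM (median 562) against 0 to 3.03 CPM (median 0.305), a log2 difference of 9.34 ± 1.0 (adjusted p = 5.26e-05). Dirigent proteins guide the coupling of lignin and lignan radicals.

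Of the other 5, UGT72E3, a glucosyltransferase that acts on lignin alcohols, was read at 7.997 to 23.97 CPM (median 17.97) in the cortex-labelled libraries and had only 4 reads in the 6 pericycle libraries together. AT1G30750, annotated only as TPRXL, was read at 568 to 1733 CPM (median 1209.6) against 0.259 to 9.01 CPM (median 0.715), a log2 difference of 9.75 ± 1.05 (adjusted p = 5.55e-05). AT1G71740, annotated as a nucleolar protein, was read at 114 to 448 CPM (median 305) against 0 to 1.06 CPM (median 0.337), and AT4G13100, a RING/U-box protein, at 16.8 to 40.2 CPM (median 24.8) against 0 to 2.103 CPM (median 0). AT1G08670, an ENTH/VHS protein, had 3633 reads in the cortex-labelled sort and 1 read in the pericycle sort, 5 of whose 6 libraries were at 0. The ratio of its scaled reads was 7356 with a 95% exact interval of 1319 to 290621, which covers counting error only, and the 1 read was in pericycle LPi replicate 3. The sorts do not overlap for these genes because only genes without overlap were chosen, so this is not a separate result.

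**Figure D2:**
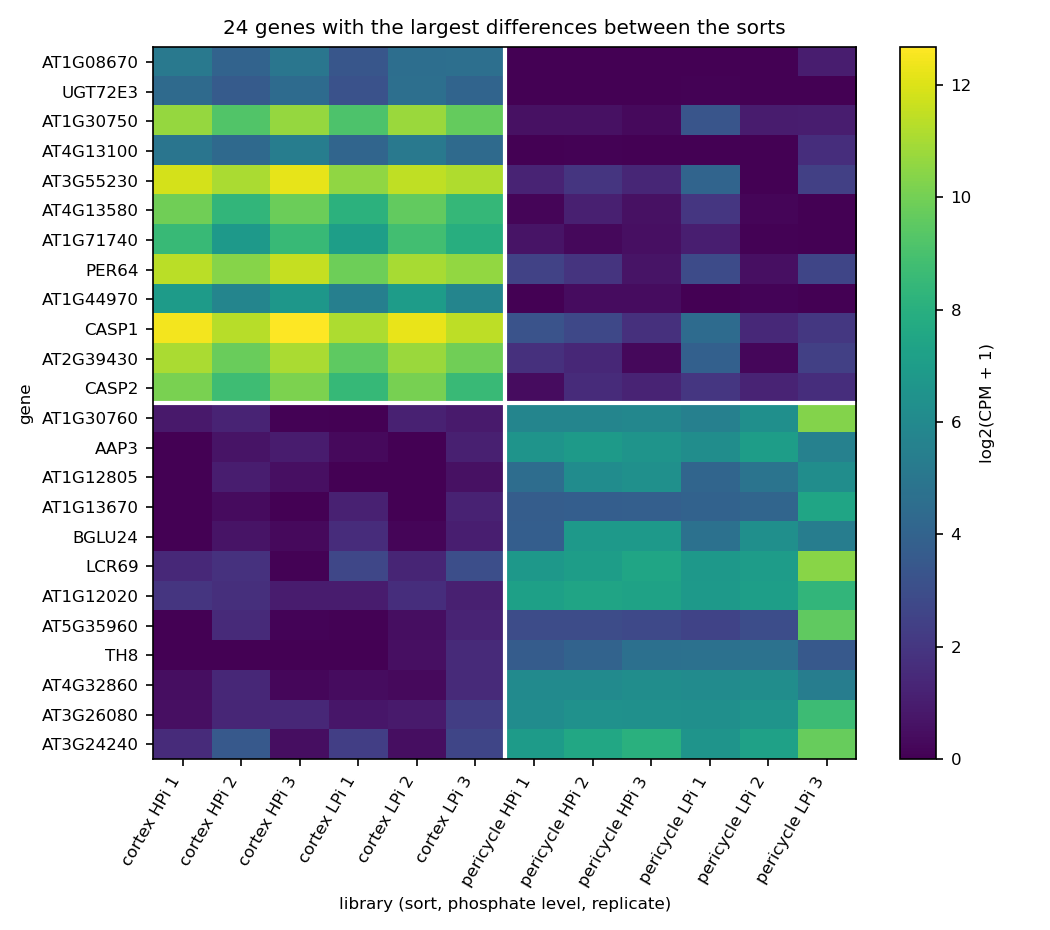
Levels as log2(CPM + 1) of the 12 genes with the largest differences in each direction (rows) in each of the 12 libraries (columns), chosen among called genes with no overlap between the sorts. The upper 12 genes are high in all 6 cortex-labelled libraries and the lower 12 in all 6 pericycle libraries. Pericycle LPi replicate 3 is above the others for AT1G30760 (1262 CPM), LCR69 (1373 CPM), AT3G24240 (850 CPM) and AT5G35960 (762 CPM). It is also above them for AT3G26080 (406 CPM), AT1G12020 (319.6 CPM) and AT1G13670 (175.6 CPM), and the lowest pericycle library for AAP3, TH8 and AT4G32860.

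The Casparian strip genes separated the sorts almost as a whole. They are the same 21 genes that were summed above as the endodermis list. Of the 21 genes in the list, all tested, 19 were higher in the cortex-labelled sort and none was higher in the pericycle sort, also without pericycle LPi replicate 3, and the median log2 difference of the list was 8.04. The CASP genes encode membrane scaffold proteins that mark where the strip is laid down. CASP1 was read at 2184 to 6518 CPM (median 3803) in the cortex-labelled libraries and at 1.74 to 20.5 CPM (median 4.41) in the pericycle libraries (log2 difference 9.14 ± 0.79, adjusted p = 8.77e-06). CASP2 was read at 356 to 1155 CPM (median 759.9) against 0.319 to 3.03 CPM (median 1.68), a log2 difference of 8.85 ± 0.66 (adjusted p = 1.97e-06). CASP4 was read at 47.2 to 163 CPM (median 103) against 0 to 0.876 CPM (median 0.157), a log2 difference of 8.12 ± 1.03 (adjusted p = 1.69e-04). CASP5 was read at 333 to 707 CPM (median 519) against 0.165 to 13.5 CPM (median 1.52), a log2 difference of 6.8 ± 1.02 (adjusted p = 5.61e-04). The lowest cortex-labelled library was above the highest pericycle library for these 4 genes, and the pericycle values were low.

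MYB36, the transcription factor that switches on the Casparian strip programme, was read at 370.1 to 623 CPM (median 511) in the cortex-labelled libraries and at 0 to 8.87 CPM (median 1.801) in the pericycle libraries (log2 difference 7.4 ± 0.64, adjusted p = 5.25e-06). PER64, a peroxidase that polymerises lignin at the strip, was read at 948 to 3011 CPM (median 1818) against 0.413 to 6.51 CPM (median 3.701), a log2 difference of 9.23 ± 0.83 (adjusted p = 1.19e-05). The peroxidase genes AT5G66390, RCI3, AT4G11290 and AT1G44970 had log2 differences of 8.33 ± 0.91, 7.2 ± 0.63, 7.08 ± 0.64 and 9.22 ± 0.88. UCC1, a copper-binding protein of the strip, differed by 8.04 ± 0.85, and the third dirigent-like gene, AT2G39430, by 8.9 ± 1.16. The strip is held closed by a surveillance pathway whose receptor kinase is encoded by GSO1, which was read at 143 to 419 CPM (median 290.2) against 0 to 12.8 CPM (median 4.62), a log2 difference of 5.73 ± 0.58 (adjusted p = 1.91e-05). The protein kinase gene AT1G61590 differed by 7.55 ± 0.73, and MYB68, another MYB gene of the list, by 3.65 ± 0.45. The 6 libraries of each sort did not overlap for any of these genes.

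The 2 exceptions were RBOHF and ESB1. RBOHF, an NADPH oxidase that supplies the superoxide used at the strip and is active in many tissues, was read at 422 to 742 CPM (median 638) against 245 to 782 CPM (median 504) and was not called (0.21 ± 0.27, adjusted p = 0.652). ESB1, a dirigent-domain gene, had only 7 reads in the cortex-labelled sort and 97 in the pericycle sort (−2.77 ± 1.32, adjusted p = 0.157). ESB1 shares 1772 bases with AT2G28671 on the opposite strand, and the library kits do not mark strand, so the reads of both genes cannot be told apart. AT2G28671, looked up after the ESB1 values were seen, was read at 18.98 to 109 CPM (median 43.99) against 0 to 0.62 CPM (median 0.289), a log2 difference of 6.97 ± 0.56 (adjusted p = 2.23e-06). The level of ESB1 is uncertain for this reason.

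Sequence upstream of 3 peroxidase genes of the list is shown. They were chosen for a match within the 200 bases before their annotated starts to the letters bound by IDD zinc-finger proteins that act with SCR. The 200 bases before each start are given 5′ to 3′ on the gene's strand from the RefSeq annotation of TAIR10.1, with AGACAA or its reverse complement TTGTCT in capitals.
PER64 (chr5:16852428-16852627, plus strand): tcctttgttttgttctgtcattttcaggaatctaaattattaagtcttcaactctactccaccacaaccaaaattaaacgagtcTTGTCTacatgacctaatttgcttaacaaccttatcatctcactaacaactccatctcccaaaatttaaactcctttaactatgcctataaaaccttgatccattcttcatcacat
AT4G11290 (chr4:6869663-6869862, plus strand): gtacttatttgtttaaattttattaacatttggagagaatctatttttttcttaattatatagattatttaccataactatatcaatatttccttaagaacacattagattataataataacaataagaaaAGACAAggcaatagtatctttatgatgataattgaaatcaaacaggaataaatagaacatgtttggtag
AT1G44970 (chr1:17001889-17002088, plus strand): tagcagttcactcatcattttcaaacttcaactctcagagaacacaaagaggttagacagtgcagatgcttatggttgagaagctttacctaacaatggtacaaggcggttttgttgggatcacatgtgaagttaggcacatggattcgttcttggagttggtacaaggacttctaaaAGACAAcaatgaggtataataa
Over windows of 300 bases (250 before to 50 after the start), searched on both strands, AGACAA was in 8 of the 21 promoters of the list (38.1%) and in 23.7% of all 32545 promoters. CNGTT, the core bound by MYB proteins, was in 15 of the 21 (71.4%) and in 77.1% of all promoters. ACGTG, the core of the G-box, was in 1 of the 21 (4.76%) and in 25.8% of all promoters. A match describes letters in these windows only, and the windows of CASP1 and CASP2 held none of the 5 motifs searched.

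The suberin genes were divided. Of 20 list genes 13 were tested. Among these, 6 were higher in the cortex-labelled sort and none in the pericycle sort, beside 10.6% and 10.4% of all genes tested. The counts were the same without pericycle LPi replicate 3 (shares 12.5% and 13.0%), and the median log2 difference was 3.08. The 6 were ASFT, which adds ferulate to suberin, KCS20, which elongates fatty acids, the lipid-transfer gene AT2G48130, and the regulators MYB92, MYB93 and MYB39. ASFT was read at 32.8 to 109.6 CPM (median 62.5) in the cortex-labelled libraries and at 0 to 1.05 CPM (median 0.122) in the pericycle libraries (log2 difference 8.43 ± 0.9, adjusted p = 4.65e-05). KCS20 was read at 221 to 493 CPM (median 447) against 14.3 to 59.7 CPM (median 30.97), a log2 difference of 3.56 ± 0.41 (adjusted p = 4.80e-05), and AT2G48130 at 54.5 to 169 CPM (median 115) against 0.0413 to 1.05 CPM (median 0.4896), a log2 difference of 7.99 ± 0.63 (adjusted p = 2.17e-06). MYB92 differed by 7.75 ± 0.74, MYB93 by 6.08 ± 1.23 and MYB39 by 4.72 ± 1.14. MYB39 was the only one of the 6 whose libraries overlapped between the sorts. MYB92 shares 155 bases with AT5G10278 on the same strand, so part of its reads may be missing or misassigned.

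GPAT5 and CYP86A1, enzymes of suberin monomer synthesis, were tested and not called. GPAT5, which makes the glycerol esters of suberin, was read at 0.01699 to 2.12 CPM (median 0.545) against 0.0228 to 14.7 CPM (median 0.212), a log2 difference of −0.8 ± 1.45 (adjusted p = 0.754), and CYP86A1, a fatty acid hydroxylase, at 0.0985 to 1.78 CPM (median 0.586) against 0 to 1.49 CPM (median 0), a log2 difference of 2.31 ± 1.58 (adjusted p = 0.345). The transporter gene ABCG20 was read at 1.56 to 4.002 CPM (median 2.68) against 1.85 to 327 CPM (median 3.85), a log2 difference of −2.78 ± 1.45 (adjusted p = 0.208). The highest pericycle values of GPAT5 and ABCG20 were those of pericycle LPi replicate 3, and so was most of the summed suberin level of that library. CYP86B1 had 33 reads in the cortex-labelled sort, all in 2 of its 6 libraries, and 0 in the pericycle sort, while MYB41 had 0 and 78 reads, the latter in 3 of 6 libraries. Both were below the expression filter and were not tested, as were GPAT7, FAR4, KCS2, ABCG2 and ABCG6.

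The regulators of ground tissue patterning were split between the sorts. Of 12 genes 10 were tested. Among these, 6 were higher in the cortex-labelled sort and 2 in the pericycle sort, beside 10.6% and 10.4% of all genes tested. Without pericycle LPi replicate 3 the counts were 6 and 3, beside 12.5% and 13.0%. The median log2 difference was 1.65. SCR was read at 49.5 to 105 CPM (median 68.4) in the cortex-labelled libraries and at 0 to 3.15 CPM (median 1.37) in the pericycle libraries (log2 difference 6.2 ± 0.88, adjusted p = 3.81e-04). JKD, an IDD zinc-finger protein that keeps SHR in the nucleus of ground tissue cells, was read at 23.5 to 41.4 CPM (median 34.4) against 0.616 to 5.64 CPM (median 1.42), a log2 difference of 4.09 ± 0.53 (adjusted p = 1.07e-04). The related zinc-finger gene AT1G14580 was read at 25.2 to 42.9 CPM (median 33.3) against 0 to 2.46 CPM (median 0.192), a log2 difference of 6.11 ± 0.84 (adjusted p = 2.71e-04). All 3 were clearly separated, with the highest pericycle value far below the lowest cortex-labelled one.

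SHR itself, described as a gene of the stele, was read at 25.9 to 53.4 CPM (median 32.7) in the cortex-labelled libraries and at 1.05 to 18 CPM (median 8.82) in the pericycle libraries. It was higher in the cortex-labelled sort (log2 difference 1.85 ± 0.4, adjusted p = 0.00451), and the groups did not overlap. The difference was 1.59 ± 0.28, adjusted p = 5.19e-04 without pericycle LPi replicate 3, 1.51 ± 0.55 (adjusted p = 0.114) at HPi and 2.2 ± 0.57 (adjusted p = 0.0302) at LPi. Also called from the list were BR6OX2, an enzyme of brassinosteroid synthesis (2.41 ± 0.34), and SCL3, a GRAS protein of gibberellin signalling (1.45 ± 0.24). NUC and MGP, 2 further IDD zinc-finger genes, were higher in the pericycle sort, with MGP near the threshold. Neither call was checked by leaving out each library in turn. NUC was read at 0.908 to 8.45 CPM (median 6.71) against 13.6 to 364 CPM (median 39.9), a log2 difference of −3.55 ± 0.85 (adjusted p = 0.0109) (−2.45 ± 0.44, adjusted p = 9.59e-04 without pericycle LPi replicate 3, which held the highest value), and MGP at 0.01699 to 9.32 CPM (median 4.43) against 12.6 to 29.7 CPM (median 23.5), a log2 difference of −2.51 ± 0.83 (adjusted p = 0.0482). RBR1, the retinoblastoma-related gene, passed the test only without pericycle LPi replicate 3 (−0.73 ± 0.27, adjusted p = 0.0649 with it, −0.9 ± 0.22, adjusted p = 0.00652 without it).

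Of the 6 cortex markers, 4 were tested and 2 were higher in the cortex-labelled sort, at low levels, also without pericycle LPi replicate 3. NPF6.4, a nitrate transporter gene, was read at 5.78 to 9.44 CPM (median 7.06) against 0 to 1.05 CPM (median 0.178), a log2 difference of 5.27 ± 1.14 (adjusted p = 0.004498), and AT5G02000 at 0.646 to 3.74 CPM (median 1.91) against 0 to 0.579 CPM (median 0), a log2 difference of 4.01 ± 1.18 (adjusted p = 0.0267). AT5G02000 lost its call when any 1 of 3 libraries was left out (adjusted p up to 0.0639). AT1G09750, an aspartyl protease gene, was read at 0.8496 to 7.08 CPM (median 4.597) against 0.641 to 3.204 CPM (median 1.06) and C/VIF2, an invertase inhibitor gene, at 1.29 to 3.94 CPM (median 1.798) against 0.579 to 3.31 CPM (median 1.13). The groups overlapped for both, and neither was called (adjusted p = 0.1099 and 0.561).

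**Figure D3:**
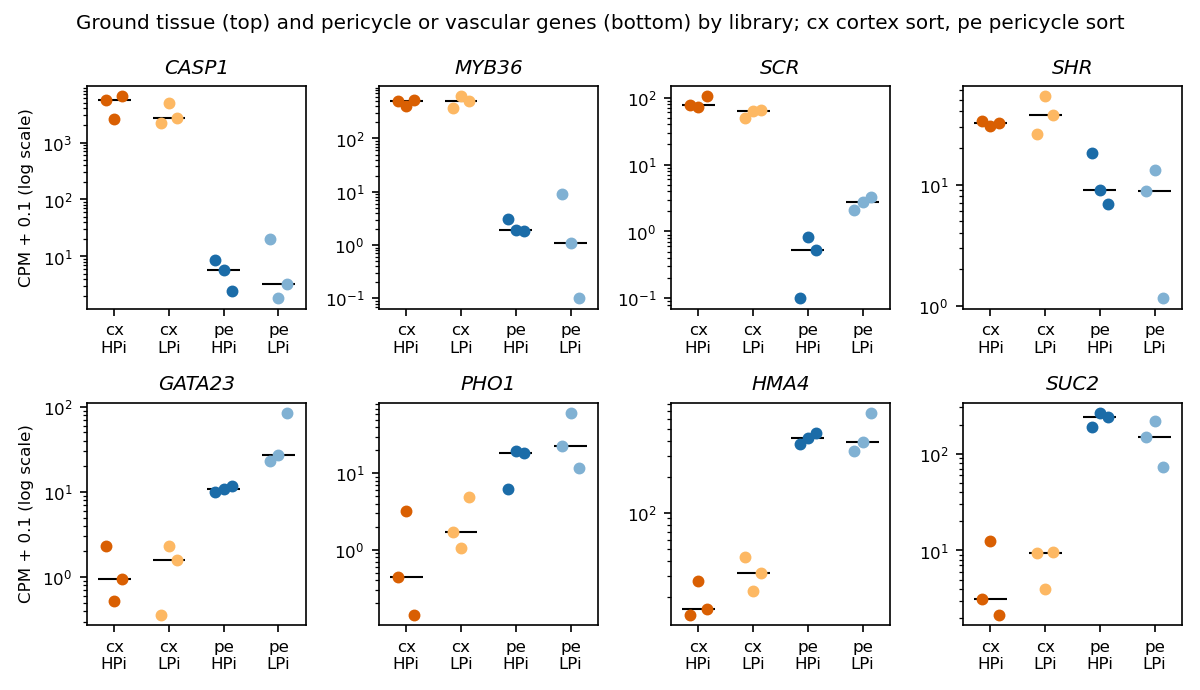
CPM + 0.1 (log scale) of 8 genes in each library, with 3 points for each sort (cx, cortex-labelled; pe, pericycle) and phosphate level and a bar at the median of the 3. CASP1, MYB36, SCR and SHR are higher in all 6 cortex-labelled libraries, and GATA23, PHO1, HMA4 and SUC2 in all 6 pericycle libraries.

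The genes with the largest differences towards the pericycle sort formed no single family. AT1G30760, a berberine bridge enzyme-like oxidase, was read at 0 to 1.42 CPM (median 0.8596) in the cortex-labelled libraries and at 45.5 to 1262 CPM (median 55.5) in the pericycle libraries (log2 difference −7.83 ± 1.31, adjusted p = 0.00114, and −6.47 without pericycle LPi replicate 3). AAP3, an amino acid permease of the vasculature, was read at 0 to 1.18 CPM (median 0.413) against 46.3 to 133 CPM (median 94.1), a log2 difference of −7.69 ± 0.99 (adjusted p = 1.83e-04). AT1G12020, an uncharacterised protein, was read at 0.9296 to 2.82 CPM (median 1.68) against 109.6 to 319.6 CPM (median 150.1), a log2 difference of −6.64 ± 0.45 (adjusted p = 1.22e-06). LCR69, a small cysteine-rich secreted protein, was read at 0.0404 to 7.29 CPM (median 2.14) against 107 to 1373 CPM (median 129.6), a log2 difference of −6.73 ± 0.95 (adjusted p = 3.63e-04) (−5.81 without pericycle LPi replicate 3).

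The other 8 of the 12 had log2 differences of −6.19 to −7.64. They were AT1G12805 (a nucleotide-binding protein), AT1G13670 (uncharacterised), BGLU24 (a beta-glucosidase), TH8 (a thioredoxin), AT4G32860 (similar to a rapidly elicited defence protein), AT3G26080 (a fibrillin-like plastid protein), the receptor-like kinase gene AT3G24240 and the protein kinase gene AT5G35960. The least mean level required and the ranking of the 12 genes used all 12 libraries, pericycle LPi replicate 3 included. Whether each of the 8 would be among the 12 without that library was not tested. AT3G26080 reached 406 CPM there against at most 93.0 CPM in the other pericycle libraries. Without pericycle LPi replicate 3 the differences of AT1G13670 and AT3G24240 were −5.99 and −5.53 (−7.0 and −6.19 with it). AT5G35960 moved further. Its highest pericycle value was 762 CPM in pericycle LPi replicate 3 against a median of 6.74 CPM, its log2 difference moved from −6.62 to −3.52 without that library, and its call was lost when any 1 of 6 other libraries was left out (adjusted p up to 0.0913).

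The pericycle markers gave 4 of 7 tested genes higher in the pericycle sort and none in the cortex-labelled sort, beside 10.4% and 10.6% of all genes tested. The counts were the same without pericycle LPi replicate 3 (shares 13.0% and 12.5%), and the median log2 difference was −1.02. GATA23, the transcription factor that marks lateral root founder cells, was read at 0.2601 to 2.24 CPM (median 1.16) in the cortex-labelled libraries and at 9.903 to 85.2 CPM (median 17.2) in the pericycle libraries (log2 difference −4.06 ± 0.63, adjusted p = 5.03e-04). PHO1, the exporter that releases phosphate towards the xylem, was read at 0.0404 to 4.73 CPM (median 1.297) against 6.14 to 62 CPM (median 18.8), a log2 difference of −3.83 ± 0.81 (adjusted p = 0.00531). The libraries did not overlap for either gene. SKP2B, an F-box gene of early primordia (−0.94 ± 0.28, adjusted p = 0.0259), and the glycine-rich protein gene AT4G30450 (−3.67 ± 1.15, adjusted p = 0.0354) were closer to the threshold. SKP2B lost its call without any 1 of 4 libraries and AT4G30450 without any 1 of 6 (adjusted p up to 0.0673 and 0.0781). TIP2;3 (−0.18 ± 0.29, adjusted p = 0.7102), the receptor kinase gene ACR4 (adjusted p = 0.549) and the cyclin gene CYCD4;1 (adjusted p = 0.913) were not called. SKOR, a potassium channel gene of xylem loading, had 44 and 135 reads and was not tested.

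The regulators of lateral root initiation leaned the same way. All 15 were tested. Of them 6 were higher in the pericycle sort and none in the cortex-labelled sort, beside 10.4% and 10.6% of all genes tested. Without pericycle LPi replicate 3, 9 were higher in the pericycle sort and none in the other, beside 13.0% and 12.5%. The median log2 difference was −2.17. GATA23 and SKP2B stand in this list too. LBD16, which acts directly below auxin response factors in founder cells, was read at 30.6 to 57.4 CPM (median 48.4) against 133 to 303 CPM (median 182), a log2 difference of −2.08 ± 0.27 (adjusted p = 1.13e-04). IAA14, the repressor that acts on those factors, was read at 4.53 to 9.26 CPM (median 6.64) against 20.2 to 44.2 CPM (median 24.02), a log2 difference of −2.17 ± 0.3 (adjusted p = 1.71e-04), and FLP, a MYB gene that promotes lateral root initiation, at 0 to 4.81 CPM (median 0.258) against 9.46 to 18.8 CPM (median 13.2), a log2 difference of −4.21 ± 0.98 (adjusted p = 0.00817). The groups did not overlap for these 3 genes.

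PUCHI, an AP2-type factor that limits divisions in the primordium, had 3 reads in the cortex-labelled sort, 4 of whose libraries were at 0, and 192 in the pericycle sort. The ratio of its scaled reads was 31.6, with a 95% interval of 10.7 to 155 that covers counting error only. It was called (adjusted p = 0.0211), but not without pericycle HPi replicate 1 (adjusted p = 0.0582). ARF19, the response factor that acts with ARF7, was read at 13.98 to 39.8 CPM (median 28.4) against 31.5 to 1354 CPM (median 81.8), and pericycle LPi replicate 3 held the highest value. It was called without that library (−1.39 ± 0.23, adjusted p = 4.12e-04) and not with it (−2.9 ± 0.99, adjusted p = 0.0569). MAKR4 and IAA28 were likewise called only without that library, with adjusted p = 0.05103 and 0.234 over the 12 libraries and 0.0421 and 0.0153 without pericycle LPi replicate 3. ARF7 leaned the other way and was not called (0.55 ± 0.22, adjusted p = 0.0979).

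Sequence upstream of GATA23 and PUCHI is shown because both hold the letters of an auxin response element within the 200 bases before their starts. The 200 bases before each start are given as above, with TGTCGG (or its reverse complement CCGACA) in capitals for GATA23 and TGTCTC in capitals for PUCHI.
GATA23 (chr5:9479224-9479423, plus strand): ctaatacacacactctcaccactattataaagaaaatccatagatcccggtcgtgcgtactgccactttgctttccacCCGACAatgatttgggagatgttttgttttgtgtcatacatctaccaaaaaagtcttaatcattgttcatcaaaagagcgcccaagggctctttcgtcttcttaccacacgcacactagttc
PUCHI (chr5:6166041-6166240, minus strand): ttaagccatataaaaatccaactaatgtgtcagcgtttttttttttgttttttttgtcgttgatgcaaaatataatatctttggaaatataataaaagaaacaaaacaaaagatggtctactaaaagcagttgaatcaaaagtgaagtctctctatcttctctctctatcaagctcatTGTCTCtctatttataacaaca
In PUCHI the base before the match completes TTGTCT, so the same stretch also counts as a match to AGACAA. The letters TGTCTC were in 5 of the 15 promoters of the list (33.3%) and in 14.3% of all promoters. TGTCGG was in 3 of 15 (20%) and in 5.04% of all promoters, on either strand. The windows of LBD16, LBD18, IAA14 and FLP, among others, held neither. These shares describe letters only.

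Among the transporters of xylem loading and unloading, those called lay mainly on the pericycle side. Of 15 genes 12 were tested. Among these, 6 were higher in the pericycle sort and 1 in the cortex-labelled sort, beside 10.4% and 10.6% of all genes tested. The counts were the same without pericycle LPi replicate 3 (shares 13.0% and 12.5%), and the median log2 difference was −2.68. HMA4, a zinc and cadmium pump, was read at 14.1 to 42.97 CPM (median 24.7) in the cortex-labelled libraries and at 326 to 683 CPM (median 403) in the pericycle libraries (log2 difference −4.16 ± 0.32, adjusted p = 1.82e-06). UMAMIT18, an amino acid exporter, was read at 2.19 to 34.7 CPM (median 8.55) against 196 to 362 CPM (median 319.5), a log2 difference of −5.06 ± 0.58 (adjusted p = 4.80e-05). The boron exporter gene BOR1 was read at 10.2 to 50.1 CPM (median 18.5) against 70.4 to 277 CPM (median 176), a log2 difference of −2.96 ± 0.44 (adjusted p = 3.02e-04) and the sulfate transporter gene SULTR2;1 at 0 to 1.21 CPM (median 0.232) against 5.92 to 15.8 CPM (median 9.67), a log2 difference of −4.63 ± 0.78 (adjusted p = 8.04e-04). None of the 4 overlapped. NPF7.2, which takes nitrate back out of the xylem, was called with overlapping libraries (−2.71 ± 0.65, adjusted p = 0.0103). It reached 3405 CPM in pericycle LPi replicate 3, and its difference without that library was −1.79 ± 0.39, adjusted p = 0.00576. PHO1 was the last of the 6. SLAH3, an anion channel gene, was the exception. It was read at 61.7 to 115 CPM (median 88.1) against 2.51 to 26.3 CPM (median 13.3) and was higher in the cortex-labelled sort (2.86 ± 0.42, adjusted p = 2.94e-04).

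Water channel genes went mainly towards the cortex-labelled sort. Of 19 aquaporin genes 18 were tested. Among these, 7 were higher in the cortex-labelled sort and 1 in the pericycle sort, beside 10.6% and 10.4% of all genes tested. Without pericycle LPi replicate 3 the counts were 12 and 3, beside 12.5% and 13.0%. The median log2 difference was 0.84. PIP1;1 was read at 2266 to 4067 CPM (median 3474) against 520.0 to 832 CPM (median 643), a log2 difference of 2.3 ± 0.22 (adjusted p = 9.93e-06), and PIP2;4 at 129 to 230.5 CPM (median 171) against 11.8 to 87.3 CPM (median 22.8), a log2 difference of 2.63 ± 0.47 (adjusted p = 0.00119). The tonoplast channel genes TIP2;1 and TIP2;2 differed by 1.49 ± 0.27 and 2.22 ± 0.39, and PIP1;5 and PIP2;6 by 3.09 ± 0.68 and 3.46 ± 0.78 (PIP1;5 by 3.98 without pericycle LPi replicate 3). The libraries overlapped for TIP2;2 and not for the other 5. PIP2;2, also called (1.05 ± 0.29, adjusted p = 0.0175), is uncertain because its sequence is nearly identical to that of PIP2;3, which was not called and leaned the other way (−1.03 ± 0.38, adjusted p = 0.07003). PIP2;5 was the member higher in the pericycle sort (−3.17 ± 0.79, adjusted p = 0.0122).

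Genes of the phloem, procambium and xylem were counted because the pericycle sort could hold neighbouring stele cells. Among 15 tested phloem genes, 6 were higher in the pericycle sort and none in the cortex-labelled sort, beside 10.4% and 10.6% of all genes tested. Without pericycle LPi replicate 3, 7 were higher in the pericycle sort and none in the other, beside 13.0% and 12.5%. The median log2 difference was −2.31. SUC2, the sucrose carrier of companion cells, was read at 2.06 to 12.3 CPM (median 6.62) in the cortex-labelled libraries and at 73.6 to 265 CPM (median 203) in the pericycle libraries (log2 difference −4.81 ± 0.52, adjusted p = 2.74e-05). OPS, a polarity protein of the sieve element lineage, was read at 0.121 to 4.25 CPM (median 1.92) against 10.5 to 59.7 CPM (median 31.4), a log2 difference of −4.16 ± 0.63 (adjusted p = 5.00e-04). CVP2, a phosphoinositide phosphatase of protophloem, AHA3, the proton pump of companion cells, FTIP1, which carries FT protein in companion cells, and the Dof factor gene DOF2.4 differed by −2.32 ± 0.43, −2.31 ± 0.44, −4.53 ± 1.15 and −4.38 ± 1.35. FTIP1 lost its call without pericycle LPi replicate 1 (adjusted p = 0.0574). Genes of mature sieve elements were low in both sorts, with SEOR1 at 0 to 2.34 CPM (median 0.102) and 0 to 3.15 CPM (median 1.36) and not called.

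Among 17 tested genes of procambium and vascular patterning, 10 were higher in the pericycle sort and none in the cortex-labelled sort. All genes tested gave 10.4% and 10.6%. Without pericycle LPi replicate 3, 12 were higher in the pericycle sort and none in the other, beside 13.0% and 12.5%. The median log2 difference was −2.27. The class III homeodomain factors, which pattern the vascular cylinder, were called throughout. HB-8 was read at 0.01699 to 4.39 CPM (median 1.46) against 33.6 to 84.04 CPM (median 62.9), a log2 difference of −5.24 ± 0.91 (adjusted p = 0.00149), CNA at 0.01699 to 3.06 CPM (median 1.47) against 12.6 to 50.6 CPM (median 29.96), a log2 difference of −4.41 ± 0.77 (adjusted p = 0.00141), and REV at 9.86 to 23.2 CPM (median 14.9) against 33.6 to 92.4 CPM (median 80.2), a log2 difference of −2.26 ± 0.28 (adjusted p = 8.05e-05). PHB and PHV differed by −2.1 ± 0.5 and −2.27 ± 0.71. TMO5, a factor that drives cytokinin synthesis in the xylem lineage, differed by −3.4 ± 0.65 and its target LOG4, a cytokinin-activating enzyme, by −4.31 ± 0.84. LOG4 reached 165 CPM in pericycle LPi replicate 3, and its difference without that library was −3.22 ± 0.5, adjusted p = 2.09e-04. The auxin response factor gene MP (−1.86 ± 0.42) and the Dof gene AT2G28510 (−1.44 ± 0.38) were also called. LHW, the partner of TMO5, and WOL, a cytokinin receptor gene, showed log2 differences of 0.0052 ± 0.25 and 0.074 ± 0.3 and were not called.

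No xylem gene passed the test, with or without pericycle LPi replicate 3. All 11 tested members of the xylem list, among them the peptidase gene XCP2 (0.2601 to 49.6 CPM (median 11.4) against 2.35 to 15.7 CPM (median 11.7)) and the laccase gene LAC4 (0.03398 to 27.1 CPM (median 3.11) against 0 to 5.13 CPM (median 2.87)), overlapped between the sorts. Of 13 tested epidermis genes, only RSL4, a root hair factor, was called, and it was higher in the pericycle sort (0.03398 to 2.3 CPM (median 0.874) against 5.97 to 9.05 CPM (median 7.41), log2 difference −3.06 ± 0.65, adjusted p = 0.00427). Without pericycle LPi replicate 3, MYB23 was called as well (2.91 ± 0.99, adjusted p = 0.0411), higher in the cortex-labelled sort. None of 7 root cap genes was called over the 12 libraries, and without pericycle LPi replicate 3 the nuclease gene BFN1 was (2.22 ± 0.7, adjusted p = 0.0316). The part that phloem, procambium or root cap RNA had in the differences between the sorts was not tested.

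**Figure D4:**
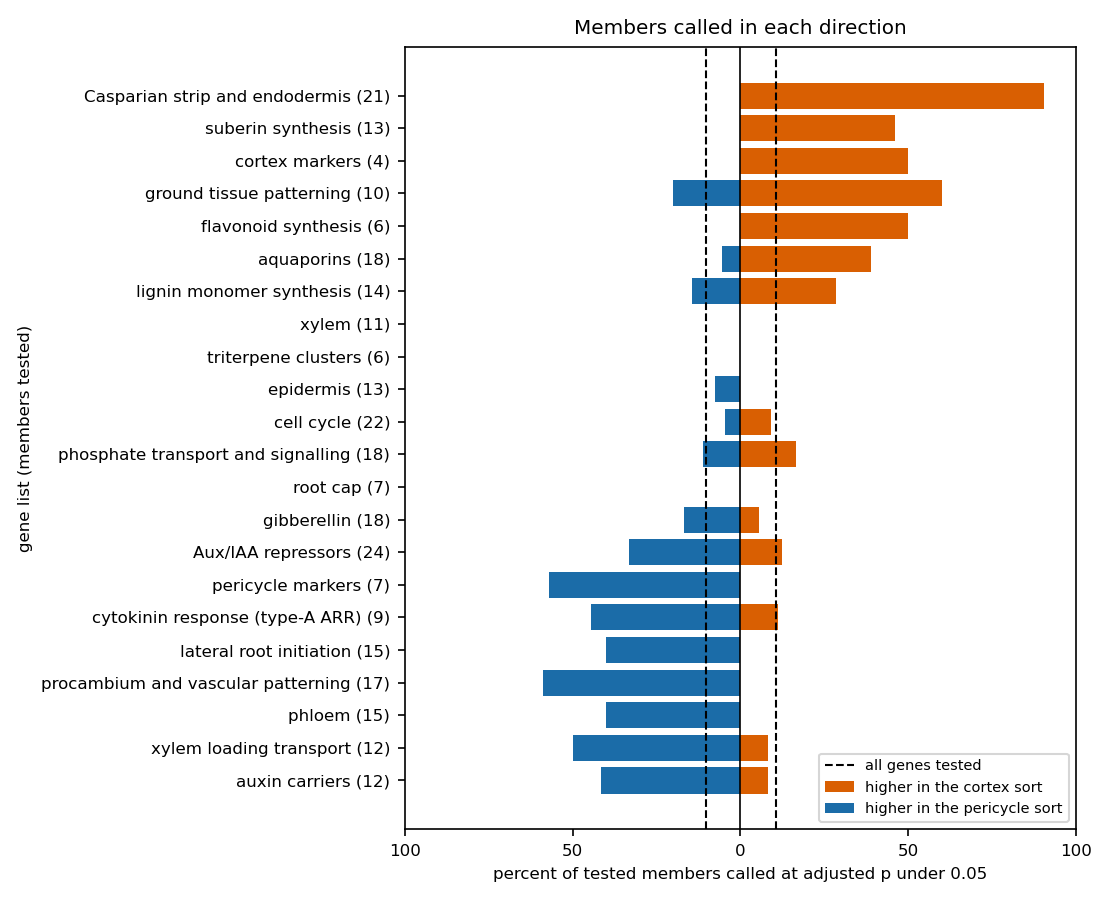
Percentage of the tested members of each of 22 gene lists called higher in the cortex-labelled sort (right) or in the pericycle sort (left), with dashed lines at the shares of all genes tested (10.6% and 10.4%). The Casparian strip list has 19 of 21 members on the right, and the procambium list 10 of 17 on the left.

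Auxin transport genes were higher mainly in the pericycle sort. Of 12 carriers, all tested, 5 were higher in the pericycle sort, beside 10.4% of all genes tested. In the cortex-labelled sort 1 was higher, near the share of 10.6%. Without pericycle LPi replicate 3 the counts were 6 and 1, beside 13.0% and 12.5%. The median log2 difference was −2.90. The importer genes AUX1 and LAX3 were read at 6.202 to 44.01 CPM (median 25.5) and 1.46 to 20.1 CPM (median 7.14) in the cortex-labelled libraries and at 75.7 to 217 CPM (median 173) and 33.6 to 165 CPM (median 118) in the pericycle libraries (log2 differences −2.82 ± 0.51, adjusted p = 0.00149 and −3.77 ± 0.68, adjusted p = 0.00177). The exporter genes PIN3 and PIN7 differed by −2.97 ± 0.54 and −4.16 ± 0.76. PIN3 reached 685 CPM in pericycle LPi replicate 3, and its difference without that library was −2.28 ± 0.23, adjusted p = 3.61e-06. ABCB4, an ABC-type auxin carrier gene, was read at 197 to 462 CPM (median 293) against 107 to 189 CPM (median 171) and was higher in the cortex-labelled sort (0.94 ± 0.24, adjusted p = 0.0134). PIN2 leaned the same way and was not called (4.06 to 35.7 CPM (median 20.6) against 0 to 8.41 CPM (median 2.51), adjusted p = 0.0649).

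The Aux/IAA repressors, which block auxin response until auxin has them degraded, had more members called higher in the pericycle sort. Of 24, all tested, 3 were higher in the cortex-labelled sort, near the share of 10.6% of all genes tested. In the pericycle sort 8 were higher, beside a share of 10.4%. Without pericycle LPi replicate 3 the counts were 4 and 9, beside shares of 12.5% and 13.0%. The median log2 difference of the list was −0.66. IAA7 was read at 104 to 133 CPM (median 125) against 25.2 to 69.4 CPM (median 34.4), a log2 difference of 1.64 ± 0.26 (adjusted p = 5.96e-04), IAA30 at 46.9 to 96.6 CPM (median 58.1) against 4.65 to 21.9 CPM (median 15.7), a log2 difference of 2.17 ± 0.36 (adjusted p = 6.76e-04), and IAA16 at 385 to 709.9 CPM (median 553) against 193 to 331 CPM (median 213), a log2 difference of 1.29 ± 0.23 (adjusted p = 0.00139). These 3 were higher in every cortex-labelled library than in any pericycle one. IAA4 was read at 0.5201 to 2.68 CPM (median 1.48) against 16.9 to 238 CPM (median 23.6), a log2 difference of −5.02 ± 0.86 (adjusted p = 0.00129) and IAA5 at 0.283 to 1.21 CPM (median 0.44) against 2.103 to 9.67 CPM (median 5.43), a log2 difference of −3.09 ± 0.61 (adjusted p = 0.00241). Pericycle LPi replicate 3 held the highest values of IAA4 and IAA19, whose differences without it were −4.17 ± 0.43, adjusted p = 4.65e-06 and −2.21 ± 0.33, adjusted p = 2.34e-04. IAA14, IAA19 (−2.94 ± 0.61), IAA26 (−3.64 ± 0.98), IAA11 (−1.58 ± 0.39), IAA27 (−2.76 ± 0.9) and IAA1 (−2.28 ± 0.69) were the other 6 higher in the pericycle sort. IAA2, IAA9, IAA13, IAA17 and IAA18 had log2 differences from −0.65 to 0.4 and were not called.

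Cytokinin induces the type-A ARR genes, whose proteins dampen its response. Of 9 tested members 4 were higher in the pericycle sort, beside 10.4% of all genes tested. In the cortex-labelled sort 1 was higher, near the share of 10.6%. The counts were the same without pericycle LPi replicate 3, beside shares of 13.0% and 12.5%. The median log2 difference of the ARR genes was −1.34. ARR5 was read at 1.74 to 5.62 CPM (median 3.36) against 6.29 to 155 CPM (median 11.1), a log2 difference of −2.7 ± 0.84 (adjusted p = 0.0394) and ARR6 at 0.424 to 3.82 CPM (median 2.31) against 8.24 to 397 CPM (median 11.5), a log2 difference of −4.16 ± 1.28 (adjusted p = 0.03697). Pericycle LPi replicate 3 held the highest values of both, and the differences without it were −1.57 ± 0.41, adjusted p = 0.01097 and −2.38 ± 0.52, adjusted p = 0.002898. ARR4 (−1.61 ± 0.52, adjusted p = 0.0408, and −0.94 without pericycle LPi replicate 3) and ARR9 (−0.87 ± 0.29, adjusted p = 0.0458) were near the threshold. Each of the 4 lost its call when any 1 of 6 (ARR4, ARR5), 8 (ARR6) or 10 (ARR9) of the 12 libraries was left out, with adjusted p up to 0.135. ARR6 shares 348 bases with AT5G62910 on the opposite strand. ARR3 was the member higher in the cortex-labelled sort (1.03 ± 0.23, adjusted p = 0.00649).

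In the gibberellin list, 18 of 19 genes were tested, and the median log2 difference was 0.05. Of these, 1 was higher in the cortex-labelled sort and 3 in the pericycle sort, beside shares of 10.6% and 10.4% of all genes tested. KO, an early enzyme of gibberellin synthesis, was read at 0.121 to 2.48 CPM (median 0.997) against 5.93 to 18.9 CPM (median 8.99), a log2 difference of −3.07 ± 0.6 (adjusted p = 0.00228). KAO1, a later enzyme (−1.08 ± 0.33, adjusted p = 0.0304), and the DELLA repressor gene GAI (−2.36 ± 0.79, adjusted p = 0.0479) were also higher in the pericycle sort, while RGL3, another DELLA gene, was higher in the cortex-labelled sort (1.43 ± 0.36, adjusted p = 0.0113). KAO1 and GAI lost their calls without any 1 of 8 and of 10 libraries (adjusted p up to 0.1087 and 0.1097). Without pericycle LPi replicate 3, 2 genes were higher in the cortex-labelled sort and 3 in the pericycle sort, beside shares of 12.5% and 13.0%. The receptor genes GID1A, GID1B and GID1C were not called, with log2 differences of 0.32 ± 0.3, 0.095 ± 0.29 and −0.35 ± 0.23.

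Genes of lignin monomer synthesis were led by CAD4 and HCT. Of 14, all tested, 4 were higher in the cortex-labelled sort, beside 10.6% of all genes tested. In the pericycle sort 2 were higher, near the share of 10.4%. Without pericycle LPi replicate 3 the counts were 8 and 2, beside 12.5% and 13.0%. The median log2 difference was 0.64. CAD4, the last step to lignin alcohols, was read at 533 to 1082 CPM (median 820.0) in the cortex-labelled libraries and at 64.1 to 157 CPM (median 98.4) in the pericycle libraries (log2 difference 2.91 ± 0.29, adjusted p = 1.21e-05), and HCT, a shikimate transferase, at 309 to 712 CPM (median 557) against 90.3 to 146 CPM (median 109), a log2 difference of 2.15 ± 0.27 (adjusted p = 8.58e-05). The groups did not overlap for either gene. 4CL1 (0.96 ± 0.32) and CYP98A3 (0.67 ± 0.21) were called with overlapping libraries, and CYP98A3 lost its call without any 1 of 9 libraries (adjusted p up to 0.0975). C4H, an early enzyme of the pathway (−1.02 ± 0.29, adjusted p = 0.0236), and CCR1 (−1.37 ± 0.39, adjusted p = 0.0233) were higher in the pericycle sort. C4H lost its call without cortex LPi replicate 3 (adjusted p = 0.0596) and CCR1 without any 1 of the 3 cortex LPi libraries (adjusted p up to 0.0553). CCR1 shares 2457 bases with AT1G05213 and 516 with AT1G15960, both on the opposite strand, so its level is uncertain. CYP98A3 shares 529 bases with AT2G09205 on the opposite strand.

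In the flavonoid list, 6 of 7 genes were tested. Among these, 3 were higher in the cortex-labelled sort and none in the pericycle sort, beside 10.6% and 10.4% of all genes tested. Without pericycle LPi replicate 3, 2 were higher in the cortex-labelled sort and none in the other, beside 12.5% and 13.0%. The median log2 difference was 1.09. MYB12, the regulator of flavonol synthesis, was read at 62.1 to 94.8 CPM (median 81.8) against 7.36 to 32.7 CPM (median 18.6) with no overlap (1.94 ± 0.31, adjusted p = 5.79e-04). TT7, a flavonoid hydroxylase (4.82 ± 1.48, adjusted p = 0.0321), and FLS1, flavonol synthase (1.25 ± 0.4, adjusted p = 0.0388), were low and overlapping. TT7 lost its call without any 1 of 8 libraries, most of all without cortex HPi replicate 2 (log2 difference 2.75, adjusted p = 0.401), and FLS1 without any 1 of 9, pericycle LPi replicate 3 among them (adjusted p = 0.0516). CHS, the entry enzyme of the pathway, was read at 37.9 to 185 CPM (median 97.9) against 24.2 to 139.9 CPM (median 54.9) and was not called.

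Of 18 tested genes of phosphate transport and signalling, 3 were higher in the cortex-labelled sort and 2 in the pericycle sort (4 and 3 without pericycle LPi replicate 3), near the shares of all genes tested (10.6% and 10.4%), and the median log2 difference was 0.13. AT4, a non-coding RNA that sequesters a microRNA of phosphate starvation, was read at 182 to 519 CPM (median 293) against 22.04 to 226 CPM (median 87.6), a log2 difference of 1.91 ± 0.28 (adjusted p = 2.60e-04), and its lowest cortex-labelled library lay below the highest pericycle one. AT1G63010, a vacuolar phosphate transporter gene, was read at 568 to 717 CPM (median 640.2) against 177 to 386 CPM (median 317) with no overlap (1.1 ± 0.21, adjusted p = 0.00214), and PHF1, which lets phosphate transporters leave the endoplasmic reticulum, differed by 1.11 ± 0.24. PHO2, which marks PHO1 for degradation, was higher in the pericycle sort (−2.09 ± 0.52, adjusted p = 0.0105), and PHO1 was the other. SPX1, a phosphate sensor gene, was read at 11.2 to 41.1 CPM (median 26.2) against 37.6 to 864 CPM (median 55.3), and 864 CPM in pericycle LPi replicate 3 was the highest. It was not called over the 12 libraries (−2.33 ± 0.9, adjusted p = 0.0896) and was higher in the pericycle sort without that library (−1.05 ± 0.26, adjusted p = 0.00747).

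Of 22 tested members of the cell cycle list, 2 were higher in the cortex-labelled sort and 1 in the pericycle sort, also without pericycle LPi replicate 3, beside shares of 10.6% and 10.4% of all genes tested, and the median log2 difference was 0.18. KRP2, an inhibitor of cyclin-dependent kinases that holds back pericycle divisions, was read at 9.23 to 28.6 CPM (median 15.3) against 4.21 to 5.25 CPM (median 4.303) with no overlap (1.76 ± 0.31, adjusted p = 0.00104). The inhibitor gene AT2G32710 differed by 0.83 ± 0.26 and lost its call without any 1 of 10 libraries (adjusted p up to 0.0844), and it shares 926 bases with AT2G32720 on the opposite strand. CYCD1;1, a cyclin gene, was higher in the pericycle sort (−4.0 ± 1.19, adjusted p = 0.0279) and lost its call without any 1 of 2 libraries (adjusted p up to 0.0639). The mitotic cyclin gene CYCB1;1 was read at 0 to 2.41 CPM (median 0.937) against 0.0704 to 1.57 CPM (median 1.08) and was not called. Among 6 tested genes of the root triterpene clusters none was called, and 2 were higher in the cortex-labelled sort without pericycle LPi replicate 3, CYP71A16 (3.93 ± 0.81, adjusted p = 0.00572) and CYP708A2 (2.33 ± 0.52, adjusted p = 0.00338).

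The difference between the sorts was then taken at each phosphate level of the medium, as 2 contrasts in a fit of all 12 libraries, which share 1 estimate of the spread. At HPi 1926 genes were called (9.02%), 1139 higher in the cortex-labelled sort (5.34%) and 787 higher in the pericycle sort (3.69%). At LPi 2211 were called (10.4%), 1144 higher in the cortex-labelled sort (5.36%) and 1067 higher in the pericycle sort (5.00%). These counts depended on pericycle LPi replicate 3 and on the fit. Without that library 3649 of 23155 genes were called at HPi (15.8%), 1987 higher in the cortex-labelled sort (8.58%) and 1662 in the pericycle sort (7.18%), and 2617 at LPi (11.3%), with 1517 (6.55%) and 1100 (4.75%). The HPi libraries fitted alone gave 4096 calls (20.3%), with 2202 (10.9%) and 1894 (9.39%) by direction. The LPi libraries fitted alone gave 565 calls (3.27%), with 387 (2.24%) and 178 (1.03%), or 1843 (9.46%), with 1159 (5.95%) and 684 (3.51%), without pericycle LPi replicate 3, so which level had more calls changed with the fit. Of the 1926 HPi calls, 1917 had the same sign at LPi and 1254 were called there too, which was 65.1% of the HPi calls and 56.7% of the LPi calls. The sign was the same for 72.1% of all genes tested. All 113 called genes of the lists, of 279 tested, had the same sign at both levels, which the calls partly fix because they rest on the same libraries.

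The interaction of sort and phosphate level was called for 0 genes (0%) by edgeR's quasi-likelihood test, where 1090 genes had an unadjusted p under 0.05 and the lowest adjusted p was 0.861. limma voom also called 0 genes and DESeq2 called 7. CASP1 differed by 9.78 ± 1.1 at HPi and 8.47 ± 1.05 at LPi, SCR by 7.71 ± 0.96 and 4.58 ± 0.87, GATA23 by −3.12 ± 0.75 and −5.04 ± 0.83, and HMA4 by −4.47 ± 0.45 and −3.85 ± 0.44. SPX1 differed by −0.66 ± 0.87 at HPi and −4.0 ± 0.98 at LPi, where pericycle LPi replicate 3 enters. PHO1 differed by −3.9 ± 1.19 and −3.76 ± 1.15.

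**Figure D5:**
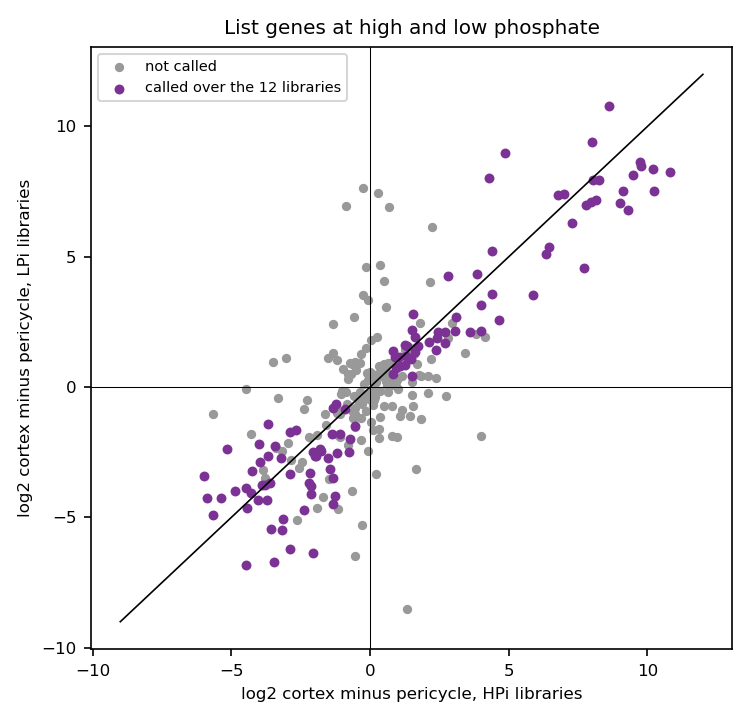
Log2 differences (cortex over pericycle) of 279 list genes in the HPi libraries (horizontal) and in the LPi libraries (vertical), with the line of equality. The 113 genes called over the 12 libraries all fall in the 2 quadrants where the sign is the same at both levels.

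Both sorts were last set against the mean of the other 3 sorts of the series (epidermis, stele and lateral root cap) in a fit of all 30 libraries. These comparisons share the other sorts, so their values are only placed side by side. The mean joins the stele with the epidermis and lateral root cap, so the values do not set either sort against the stele alone. Stele HPi replicate 1 and stele LPi replicate 1 held only 1097568 and 427064 reads in genes. CASP1 stood 6.21 ± 0.77 above that mean on the log2 scale in the cortex-labelled sort and −2.91 ± 0.98 in the pericycle sort, and MYB36 6.19 ± 0.68 and −1.17 ± 0.79. SCR stood at 5.54 ± 0.65 and −0.53 ± 0.75, and SHR at 4.41 ± 0.49 and 2.56 ± 0.5, above that mean in both. GATA23 stood at 0.83 ± 0.58 in the cortex-labelled sort and 4.99 ± 0.54 in the pericycle sort, LBD16 at 2.21 ± 0.28 and 4.35 ± 0.27, and HMA4 at 0.15 ± 0.3 and 4.37 ± 0.27. SUC2 stood at −1.76 ± 0.42 and 3.11 ± 0.34, and HB-8 at −1.78 ± 0.71 and 3.56 ± 0.55.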

How the data were processed

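RNA of sorted root cells was amplified with SMART-Seq v4 and made into libraries with ThruPLEX, kits that do not mark strand. Reads where genes overlap are therefore uncertain. Not every overlap of a named gene is given above, and AT2G39430, which shares 1109 bases with AT2G09045, is 1 of those left out. Per the labels, the authors' processing notes name CASAVA 1.4, FastQC 0.11.9, MultiQC 1.7, STAR 2.5.3a, HTSeq 1.99.2 and DESeq2, with no statement of the genome build, annotation or strand setting. The deposited values are raw read counts per gene (32833 genes). Reads on the 5 lines for unassigned reads (4.99 to 9.26% of a library) were left out.

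Counts of the 12 libraries were scaled by TMM, filtered with filterByExpr by the 4 groups of sort and phosphate level, and tested with edgeR 4.0.16 in R 4.3.3 (quasi-likelihood F test, 2-sided, robust, 9 residual degrees of freedom), with phosphate level as a covariate. Adjusted p-values are Benjamini-Hochberg values over all genes tested. The interaction and the differences at each phosphate level were tested with 1 mean per group, and the comparison with the other sorts over all 30 libraries. The fits were tested on simulated data. Alternatives used limma 3.58.1 and DESeq2 1.42.0.

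Named genes were the 12 largest called differences in each direction (mean log2 CPM of at least 3, no overlap, called also without pericycle LPi replicate 3), up to 5 members of each of 22 lists (306 genes) by smallest p, and fixed genes (CASP1, CASP2, CASP4, CASP5, SHR, SCR, MYB36, GATA23, PHO1, SKOR, SUC2, AT4 and SPX1), and further list members are named to fill out the counts. Some members of the lists are not reported here. The comparison, the gene lists and the rule were chosen with earlier results of these data known. Promoters were taken by gene ID from RefSeq's annotation of TAIR10.1, in which 32548 IDs matched and 285 plastid or mitochondrial IDs did not.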

Additional observations from a re-analysis of the deposited data

Results flagged for a closer look

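Single libraries that stood apart from the other 5 of their sort were looked for in 114 groups of 6 values. The groups were the levels of a chosen part of the named genes and the marker sums in each sort. Each group joins the HPi and LPi libraries of a sort, and the part of phosphate level in a gap was not tested. The gap to the nearest library was compared with the whole range (Dixon's test). Named genes outside this choice, AT5G35960 and ARR6 among them, were not examined. The gap was wide enough in 25 groups. A share of about 5% by chance holds for independent groups of normally distributed values. These groups share libraries, and their CPM were not checked for that shape, so the share expected here is not known. Pericycle LPi replicate 3 was the library in 17 of the 25.

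In pericycle LPi replicate 3, several genes counted as pericycle or stele genes were far above the rest of the sort. GATA23 stood at 85.2 CPM against at most 26.8 in the other pericycle libraries, IAA4 at 238 against at most 39.9, PIN3 at 685 against at most 124, and the cytokinin enzyme gene LOG4 at 165 against at most 15.8. Among the genes with the largest differences, AT1G30760 stood at 1262 CPM against at most 77.5, LCR69 at 1373 against at most 175, and AT1G12020 at 319.6 against at most 165. SPX1 stood at 864 CPM against at most 68.1. Of genes higher in the cortex-labelled sort, PIP2;4 stood at 87.3 CPM there against at most 29.9 and IAA7 at 69.4 against at most 41.5. MYB92 stood at 1.05 CPM against at most 0.317, but this is 1 read. REV was the lowest of the sort at 33.6 CPM, where the others began at 73.7. The marker sums of this library were 403 CPM for suberin (others at most 69.5), 1117 for procambium (at most 593), 170.2 for root cap (at most 28.4), 96.6 for epidermis (at most 51.4) and 116 for phloem (others at least 301).

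Pericycle LPi replicate 1 had the highest values of some Casparian strip genes in its sort, with CASP1 at 20.5 CPM against at most 8.53, MYB36 at 8.87 against at most 2.97 and AT3G55230 at 16.1 against at most 4.21, and of AT1G30750 at 9.01 against at most 1.05. CASP4 and AT1G44970 had 0 reads there. The values named remained below every cortex-labelled library. JKD stood at 5.64 CPM in pericycle HPi replicate 1 against at most 2.103, and UMAMIT18 was lowest there at 196 CPM, where the others began at 304. PHO1 stood at 62.0 CPM in pericycle LPi replicate 2 against at most 22.4. UMAMIT18 stood at 34.7 CPM in cortex LPi replicate 3 against at most 11.2 in the other cortex-labelled libraries. The causes of these values were not tested.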

How the results depend on the processing

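Of 21346 genes, 4479 were called, 2261 higher in the cortex-labelled sort and 2218 higher in the pericycle sort. The counts stayed within 1.5 times of these with RLE size factors (4583 called), without the low-count filter (3907), with 5 CPM in at least 3 libraries (4850), with DESeq2 (6212), in the fit of all 30 libraries (5711), without the phosphate covariate (4859), in the HPi libraries alone (4096) and without plastid and mitochondrial genes (4477). limma voom called 7545 genes (3432 and 4113), the LPi libraries alone gave 565 (387 and 178), and testing against a log2 difference of 1 gave 1582 (875 and 707). By alternatives chosen after seeing the data, the LPi libraries alone gave 684 genes higher in the pericycle sort without pericycle LPi replicate 3, and in the fit of both levels leaving it out gave 3649 calls at HPi (1987 and 1662) in place of 1926 and 2617 at LPi in place of 2211. The HPi libraries alone gave 2202 and 1894. With 1 library left out, the calls ranged from 3355 to 5911, from 1783 to 2896 towards the cortex-labelled sort and from 1572 to 3015 towards the pericycle sort. The lowest of these came without pericycle HPi replicate 3 and the highest without pericycle LPi replicate 3. Called list genes ranged from 95 to 139 around 113. The interaction gave 0 calls except for 7 with DESeq2 and a range of 0 to 1 with 1 library left out (1 without cortex HPi replicate 2). The median log2 difference of all genes stayed between −0.18 and −0.05.

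Same-numbered cortex and pericycle libraries at the same phosphate level did not deviate together (correlations from −0.0297 to 0.0805), so the numbers were taken not to pair the libraries. With the replicate block 3718 genes were called, 1884 higher in the cortex-labelled sort and 1834 in the pericycle sort, and the interaction gave 0.

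Of 134 named genes tested, 106 were called, 19 of which lost the call without some library and 6 others gained one. List members named only to fill out the counts were not checked by leaving out each library in turn. MGP, NUC, DOF2.4, PHV, IAA1, IAA26, IAA27, PIP2;5 and NPF7.2 are among these. RLE size factors ended 3 calls and the fit without a filter 7, and the filter at 5 CPM added 2. Uncalled genes changed sign without some library, where ACR4 ranged from −1.59 to 0.036, LAC4 from −0.11 to 1.29, XCP2 from −0.12 to 0.97, PRP3 from −2.0 to 0.44, BRN2 from −1.37 to 0.48, AT4G04460 from −0.52 to 0.84 and CYP708A2 from −0.062 to 2.33. Genes with a few reads in either sort are limited by depth, since the shallowest of the 12 libraries held 1863306 reads.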

Other observations

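Families named from the product annotation, chosen after the values were seen, are given as counts with no test of the family. Some of their members also stand in the lists above. Of 56 tested peroxidase superfamily genes, 19 were called higher in the cortex-labelled sort and 4 higher in the pericycle sort, and of 20 dirigent-like genes 9 and 1, both families holding the Casparian strip members described above. Of 66 UDP-glycosyltransferase genes, which attach sugars to small molecules, 22 were higher in the cortex-labelled sort and 7 in the pericycle sort. The shares of all genes tested were 10.6% and 10.4%.

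Other families picked in this way had more members called higher in the pericycle sort. No wider set of protein folding or translation genes was counted. Of 13 TCP-1/cpn60 chaperonin genes 8 were higher in the pericycle sort and none in the cortex-labelled sort, and of 27 HSP20-like genes 13 and 1, with the same counts without pericycle LPi replicate 3. Of 9 genes of 60S acidic ribosomal proteins 7 were higher in the pericycle sort and none in the cortex-labelled sort, and without pericycle LPi replicate 3 the number was 4. Of 17 Dof-type zinc-finger genes, transcription factors with known members in the phloem and procambium, 8 were higher in the pericycle sort and 2 in the cortex-labelled sort, also without that library. AT2G28510 of the procambium list is 1 of these 8.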
